A study of Homo sapiens with 4 samples.

Results

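Interferon-stimulated genes and the factors that control them were followed in a pancreatic cancer cell line with and without a knockdown of the histone variant H2A.Z. The group was set by a list of 39 gene symbols, which was itself drawn up with earlier results of these data known, and transcript counts were summed for each symbol. Of these 39 genes, 34 had a row in the abundance table, which held 15221 genes, and all 34 passed the filter of at least 5 counts in 2 libraries. IFI16, IFI27, IFI44, IFI44L and TRIM22 had no row. A transcript in that table reached at least 5 counts in some library, so for these genes the data give no level and no comparison.

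Interferons are secreted proteins that cells release when they sense viral or misplaced nucleic acid. Type I interferons bind the receptor IFNAR1 and IFNAR2, whose kinases JAK1 and TYK2 activate STAT proteins, and STAT2 joins IRF9 in a complex that binds the interferon-stimulated response element (ISRE) in promoters. The genes switched on in this way encode antiviral effectors, sensors that reinforce the response, and brakes such as USP18. Many are also transcribed at a low level without added interferon, and no interferon treatment is named in the labels.

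The control group was PANC-1, a line from human pancreatic ductal adenocarcinoma labelled wild type, with 2 libraries. The other group was PZT-2, with 2 libraries, a single clone of PANC-1 in which short hairpin RNAs expressed from a U6 promoter in a lentiviral vector target the 3 H2A.Z isoforms and which was selected with puromycin. PANC-1 cells were not transduced, so transduction, selection, cloning and knockdown cannot be told apart in this comparison. Both lines were at passages p12-p13 in the same medium with serum. H2AFZ, which encodes H2A.Z.1, had 6386 and 6031 normalized counts in PANC-1 and 2211 and 2258 in PZT-2 (log2 fold change -1.47, standard error 0.0565, adjusted p = 6.23e-05). H2AFV, which encodes the H2A.Z.2 isoforms, fell by 0.36 on the log2 scale (adjusted p = 0.00572). Without PZT-2 replicate 1, or for the most abundant transcript alone, the H2AFV call was lost (highest adjusted p = 0.067).

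Normalized counts here are recovered counts divided by edgeR's TMM-scaled library size and multiplied by the mean library size, so they compare one gene between libraries and not different genes. Every log2 fold change is PZT-2 over PANC-1 from edgeR's quasi-likelihood test, and a gene was called higher or lower at a Benjamini-Hochberg adjusted p under 0.05 over the 15101 genes tested. Depth ran from 12861128 to 15717289 counts per library, and neither line was uniformly deeper. The study calls the libraries of a line biological replicates, but neither it nor the labels says that they came from separate cultures. The p-values thus measure the spread between these libraries, which may in part be technical. With 2 libraries against 2, an exact permutation test of a single gene cannot go below p = 0.333. Of 9 markers of pancreatic ductal epithelium, 7 had a row. KRT8, KRT18 and KRT19 had at least 12378 normalized counts in each of the 4 libraries, and all 3 were called lower in PZT-2, at log2 fold changes of -1.17, -0.81 and -0.73. MUC1 was called lower at -0.52, SOX9 higher at 0.25, and KRT7 and EPCAM were not called. That made 4 of 7 ductal markers lower (57.1%, beside 13.7% of all genes). Of 4 fibroblast markers only COL1A1 had a row, and it was called lower at -1.75. No marker of acinar or plasmacytoid dendritic cells had a row. Among 6 leukocyte markers 3 had a row, and PTPRC had none. CD14 had 3.37 and 0 normalized counts in PANC-1 and 16.1 and 31.6 in PZT-2, and was called higher. ITGAM had 45.0 and 42.5 in PANC-1 and 25.2 and 37.6 in PZT-2 and was not called, and LYZ, which was not tested, had 2.25 and 7.23 in PANC-1 and 3.02 and 0 in PZT-2. The part of these markers in the results was not tested.

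The interferon-stimulated genes were lower in PZT-2 more often than higher, and the group did not move as one. Of the 34 genes tested, 12 were called lower, 3 higher and 19 neither. Called lower were XAF1, IFITM1, IFITM3, BST2, IFITM2, HERC5, DHX58, MX2, IFIT5, IFIT1, IFI6 and OAS3. Called higher were ISG20, ISG15 and DDX58, which encodes the RNA sensor RIG-I. The 12 lower calls are 35.3% of the genes tested in the group, beside 13.7% of all genes, and the 3 higher calls are 8.82%, beside 14.7% of all genes. Without any overlap of the lines, PZT-2 was the lower for 20 of the 34 genes, beside 33.0% of all genes, and the higher for 5, beside 33.3% of all genes. The median log2 fold change was -0.35, with XAF1 at its fitted value or at the bound given below, beside 0.00 over all genes tested.

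The number of lower calls fell when either PZT-2 library was left out, as did the number over all genes. With PZT-2 replicate 1 left out it was 6, with replicate 2 of that line left out also 6, and it was 7 with DESeq2 and 6 when each gene was represented by its most abundant transcript, while over all genes the lower calls fell from 2069 to 1112 and 856 without those libraries. Over all genes the lower calls were 1554 with DESeq2 and 1008 for the most abundant transcript. IFITM1, IFITM2, IFITM3, MX2, ISG15 and ISG20 passed under all 15 alternatives run for them.

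The promoters of these genes were searched for the letters that STAT and IRF complexes are known to prefer, because they are the sequence feature that interferon-stimulated genes are known to share. RefSeq promoters of GRCh38.p14, from 250 bases before to 50 after the start, were at hand for 30 of the 39 genes. An ISRE-type match was GAAANNGAAA, or TTTCNNTTTC where it lies on the other strand, and matches may overlap. It occurred in 19 of the 30 promoters (63.3%), beside 1255 of all 35116 promoters (3.57%). A GAS-type match, TTCNNNGAA, which reads the same on both strands, occurred in 7 of the 30 (23.3%), beside 2689 of all promoters (7.66%). The ISRE-type letters were in the promoters of 8 of 9 genes called lower, the exception being XAF1, of 2 of 3 called higher, the exception being DDX58, of 6 of 14 not called and of 3 of 4 without a row. The letters thus occurred in genes of both directions, and a match is a description of the window and not a bound site. No promoter was at hand for IFITM2, DHX58 or MX2 among the called genes. One match is shown for 6 genes called lower and the 2 genes called higher that have one, so that both directions can be set side by side. Capitals mark the matched letters, and each window is written 5′ to 3′ on the strand of its gene. The windows lie at chr11:313990-314019 on the plus strand for IFITM1, chr11:320876-320905 on the minus strand for IFITM3, chr19:17405741-17405770 on the minus strand for BST2 and chr4:88457035-88457064 on the plus strand for HERC5. Those of IFIT1 and OAS3 lie at chr10:89392510-89392539 and chr12:112938321-112938350, both on the plus strand. Those of ISG15 and ISG20 lie at chr1:1013380-1013409 and chr15:88638937-88638966, both on the plus strand.
IFITM1: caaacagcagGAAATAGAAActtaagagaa
IFITM3: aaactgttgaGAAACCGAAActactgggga
BST2: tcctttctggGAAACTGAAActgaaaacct
HERC5: aaacattatgTTTCGTTTTCcactggagct
IFIT1: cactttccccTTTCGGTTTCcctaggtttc
OAS3: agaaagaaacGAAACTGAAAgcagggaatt
ISG15: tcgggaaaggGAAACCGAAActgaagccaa
ISG20: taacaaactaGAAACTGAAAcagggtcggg
Among the matches shown, the letters of BST2, OAS3 and ISG20 are the same, as are those of IFITM3 and ISG15. ISG20 and ISG15 were called higher and the others lower. Several of the genes have further matches, so which genes share letters depends on the match shown. IFITM1, for one, has another match with the letters shown for BST2, OAS3 and ISG20.

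The membrane proteins that hold virus at the cell surface or block its entry were the role in which every gene was called lower. IFITM1, IFITM2 and IFITM3, interferon-induced transmembrane proteins that keep enveloped viruses from fusing with cell membranes, and BST2, the tether that holds budding virus on the cell, were all called lower. IFITM3 had 6725 and 5603 normalized counts in PANC-1 and 2001 and 1874 in PZT-2. The lower PANC-1 library was thus still far above the higher PZT-2 library. The change was -1.67 on the log2 scale (standard error 0.0956, adjusted p = 0.000224), 3.18-fold lower in PZT-2. IFITM2 had 898 and 781 normalized counts in PANC-1 and 297 and 309 in PZT-2. Both PZT-2 libraries lay together and well below PANC-1 (log2 fold change -1.47, standard error 0.0977, adjusted p = 0.000349).

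IFITM1 fell the furthest of the genes with counts in both lines. It had 358 and 252 normalized counts in PANC-1, replicate 1 the higher, and 16.1 and 24.7 in PZT-2. Both PZT-2 libraries were low, and the spread within PANC-1 was small beside the gap between the lines. The log2 fold change was -3.88 (adjusted p = 0.000424, standard error 0.274), 14.8-fold lower in PZT-2, and it ran from -4.23 to -3.61 with each library left out in turn. Only 0.338% of all genes tested had a lower fitted value. BST2 was near the lower end of the counts, with 55.1 and 40.6 in PANC-1 and 20.1 and 11.9 in PZT-2. Its groups did not overlap, and its log2 fold change was -1.57 (adjusted p = 0.023, standard error 0.373). BST2 has a single transcript in the table. The BST2 call was lost for the most abundant transcript alone and without PZT-2 replicate 2, where its adjusted p reached 0.11.

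The 3 IFITM genes are close paralogs that lie side by side, so the division of reads among them is an estimate by kallisto. Of the 31-base words in their GENCODE 29 transcripts, 35.3% for IFITM1, 45.2% for IFITM2 and 56.0% for IFITM3 also occur in transcripts of other genes. For IFITM3, 23.9% occur in IFITM2 and 19.2% in AC136475.5, a gene outside the trio. The sum over the 3 genes does not depend on how reads were divided among them, although it could still gain or lose reads shared with other genes. It was 7980 and 6636 normalized counts in PANC-1 and 2314 and 2208 in PZT-2, 3.23-fold lower. IFITM3 made up 84.3% and 84.4% of that sum in PANC-1 and 86.5% and 84.9% in PZT-2. The larger fall of IFITM1 therefore sits in a minor part of the reads, and the 3 values are not 3 independent measurements.

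The fall was not shared by all genes around them on chromosome 11. Up to 10 genes tested were taken on each side, fewer towards the end of the chromosome. These 16 neighbours had a median log2 fold change of -0.08. Of them 4 were called lower and 1 higher, beside 13.7% lower and 14.7% higher of all genes. The gene next to IFITM2, PGGHG, was at 0.13 on the log2 scale (adjusted p = 0.272), and the gene next to IFITM3, B4GALNT4, was called higher at 0.42 (adjusted p = 0.00763). The 4 neighbours called lower were LINC01001 at -0.86, RNH1 at -0.50, SIGIRR at -0.47 and ANO9 at -0.35, each a smaller change than any of the 3 IFITM genes. IFITM10, which is also on chromosome 11 but not among these neighbours, was called lower at -0.60 (adjusted p = 0.00287).

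**Figure D1:**
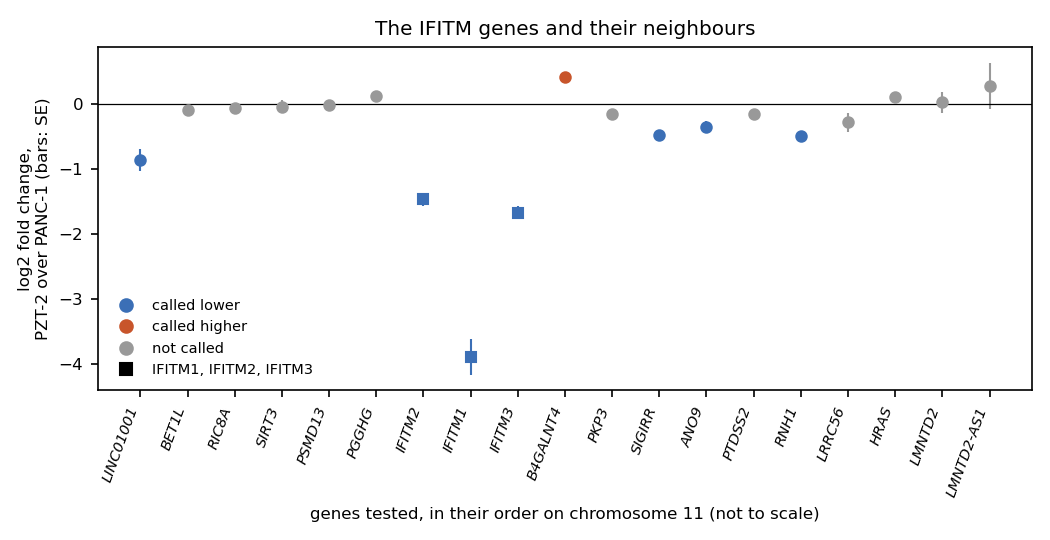
Log2 fold changes (PZT-2 over PANC-1, with standard errors) of IFITM1, IFITM2 and IFITM3 (squares) and of the 16 genes tested nearest to them (circles), in their order on chromosome 11, coloured by call. The squares lie at -1.47 or lower, and the circles lie between -0.86 and 0.42.

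Of the enzymes that add or remove ISG15, a ubiquitin-like protein that interferon induces and cells attach to other proteins, the modifier itself rose and its ligase fell. ISG15 had 532 and 489 normalized counts in PANC-1 and 724 and 808 in PZT-2. Both PZT-2 libraries were above both PANC-1 libraries, and the log2 fold change was 0.59 (adjusted p = 0.00487, standard error 0.0897). HERC5, the main human ligase for ISG15, had 55.1 and 56.9 normalized counts in PANC-1 and 20.1 and 26.7 in PZT-2. Its groups did not overlap (log2 fold change -1.25, standard error 0.272, adjusted p = 0.0166), but DESeq2, the most abundant transcript alone and the fits without either PZT-2 library did not call it (highest adjusted p = 0.087). USP18, which removes ISG15 and also dampens signalling at the type I receptor, had 117 and 107 normalized counts in PANC-1 and 78.5 and 90.9 in PZT-2. These groups did not overlap either, but the difference did not pass (log2 fold change -0.40, standard error 0.164, adjusted p = 0.122), and 28.8% of its words are shared with USP41. HERC6, a related ligase, reached at most 7.87 normalized counts in any library and was not called.

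Of the sensors of foreign RNA and the kinase PKR, 1 rose, 1 fell and 2 were not called. DDX58 had 490 and 481 normalized counts in PANC-1 and 603 and 614 in PZT-2. The libraries of each line lay close together and the lines apart (log2 fold change 0.33, standard error 0.0745, adjusted p = 0.0203). The DDX58 call was lost in 6 of 15 alternatives, among them DESeq2, both fits on log2(TPM) and the fits without either PZT-2 library, with adjusted p up to 0.11. DHX58, which encodes LGP2, a helicase of the same family that tunes RIG-I and MDA5 signalling, had 93.4 and 85.8 normalized counts in PANC-1 and 32.2 and 43.5 in PZT-2. It was thus lower in both PZT-2 libraries (log2 fold change -1.24, standard error 0.228, adjusted p = 0.00937), and the call was lost when PZT-2 replicate 1 was left out (adjusted p = 0.053). IFIH1, which encodes MDA5, was at -0.24 on the log2 scale (standard error 0.145, adjusted p = 0.278). EIF2AK2, which encodes PKR, the kinase that halts translation on double-stranded RNA, had 453 and 491 normalized counts in PANC-1 and 541 and 531 in PZT-2. The EIF2AK2 groups did not overlap, but the log2 fold change of 0.18 did not pass (standard error 0.0825, adjusted p = 0.155), and the median of its neighbours on chromosome 2 was 0.42.

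The IFIT genes, which lie together on chromosome 10 and encode proteins that bind viral RNA and translation factors, gave small changes. IFIT1 had 196 and 210 normalized counts in PANC-1 and 138 and 161 in PZT-2. IFIT5 had 138 and 150 in PANC-1 and 97.6 and 108 in PZT-2. In both genes the PZT-2 libraries were the lower pair without overlap. The log2 fold changes were -0.44 for IFIT1 (standard error 0.132, adjusted p = 0.0499) and -0.49 for IFIT5 (standard error 0.143, adjusted p = 0.0451). Both calls were near the threshold. IFIT1 passed in 5 and IFIT5 in 6 of 15 alternatives, neither passed with DESeq2 or without either PZT-2 library, and adjusted p reached 0.24 and 0.25. IFIT2 and IFIT3 overlapped between the lines, at log2 fold changes of 0.12 (standard error 0.217) and -0.34 (standard error 0.215), with adjusted p of 0.733 and 0.289. The direction of IFIT2 was negative without PANC-1 replicate 2 (-0.08) or without PZT-2 replicate 2 (-0.17).

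The OAS proteins sense double-stranded RNA and make the antiviral messenger 2-5A, and OASL is a relative without that activity that enhances RIG-I signalling. OAS3 had 1455 and 1590 normalized counts in PANC-1 and 1206 and 1283 in PZT-2. The groups did not overlap and the change was small (log2 fold change -0.29, standard error 0.072, adjusted p = 0.0261). The OAS3 call was lost on log2(TPM), for the most abundant transcript and without either PZT-2 library (highest adjusted p = 0.16). OASL had 167 and 75.0 normalized counts in PANC-1 and 43.3 and 61.3 in PZT-2. PANC-1 replicate 1 stood well above the other 3 libraries, and the log2 fold change of -1.19 did not pass (standard error 0.4, adjusted p = 0.0702). It passed without PANC-1 replicate 2 and with a minimum of 10 counts in all 4 libraries, and the leave-one-out values ran from -1.68 to -0.52. OAS2 and OAS1 reached at most 37.0 and 33.2 normalized counts in any library, with log2 fold changes of -1.14 and 0.47 (standard errors 0.423 and 0.361) that did not pass (adjusted p = 0.0914 and 0.38).

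MX1 and MX2, dynamin-like GTPases that trap viral nucleoproteins and, for MX2, lentiviral capsids, lie side by side on chromosome 21 and did not give the same values. MX2 had 535 and 612 normalized counts in PANC-1 and 303 and 278 in PZT-2. Both PZT-2 libraries were near 1.98-fold lower (log2 fold change -0.99, standard error 0.104, adjusted p = 0.00141). MX1 had 40.5 and 9.94 normalized counts in PANC-1 and 37.2 and 45.5 in PZT-2. PANC-1 replicate 2 alone was low and the groups overlapped, so that the log2 fold change of 0.75 (adjusted p = 0.387, standard error 0.581) ran from 0.02 to 2.04 with single libraries left out, and it passed only without PANC-1 replicate 1. The difference between MX1 and MX2 was not tested.

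Of the remaining effectors, ISG20, an exonuclease that degrades viral RNA, rose the most of the group. It had 199 and 138 normalized counts in PANC-1 and 343 and 376 in PZT-2. Both PZT-2 libraries were above both PANC-1 libraries (log2 fold change 1.10, standard error 0.173, adjusted p = 0.00536), 2.15-fold higher. Genes on chromosome 15, where it lies, had a median log2 fold change of 0.24, and its nearest neighbours 0.29. IFI6, a mitochondrial and endoplasmic reticulum protein that counters cell death, had 290.2 and 258 normalized counts in PANC-1 and 204 and 201 in PZT-2. The PZT-2 libraries were nearly equal and below both PANC-1 libraries (log2 fold change -0.43, standard error 0.112, adjusted p = 0.0304). The IFI6 call was lost in 5 of 15 alternatives, among them DESeq2 and the fits without PANC-1 replicate 1 or either PZT-2 library (highest adjusted p = 0.15). IFI35, which binds the interferon-induced protein NMI, had a log2 fold change of -0.38 (standard error 0.142) without overlap between the lines and did not pass (adjusted p = 0.0961). With single libraries left out IFI35 ran from -0.58 to -0.17, and it passed without PANC-1 replicate 2 (adjusted p = 0.0020).

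XAF1, an interferon-induced partner of the apoptosis inhibitor XIAP, had 20.2 and 9.94 normalized counts in PANC-1 and none in either PZT-2 library. Against a floor of 3 counts per library it was at least 5.04-fold lower in PZT-2 (adjusted p = 0.0115). The counts rest on 1 non-coding transcript record, and 36.5% of the words of XAF1 also occur in the annotated gene PRAL. SAMD9L had 23.6 and 22.6 normalized counts in PANC-1 and 16.1 and 5.93 in PZT-2, and the difference did not pass (log2 fold change -1.06, standard error 0.513, adjusted p = 0.175). Its related neighbour SAMD9 had 33.7 and 0 normalized counts in PANC-1 and 34.2 and 0 in PZT-2, so the gene was seen in 1 library of each line and gave no difference that could be read (adjusted p = 0.982). Both encode large cytoplasmic proteins that restrict poxviruses and cell growth.

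The transcription factors of the response were not called in either direction by edgeR or DESeq2. In edgeR 2 of the 4 had an unadjusted p under 0.05, beside 6128 of all 15101 genes tested. STAT2 had 557 and 507 normalized counts in PANC-1 and 556 and 550 in PZT-2, which overlap (log2 fold change 0.06, standard error 0.0829, adjusted p = 0.649). IRF9, its DNA-binding partner, had 165 and 174 in PANC-1 and 133 and 140 in PZT-2. IRF9 was the lower in both PZT-2 libraries, but its log2 fold change of -0.32 did not pass (standard error 0.125, adjusted p = 0.109), and 45.2% of its words also occur in another annotated gene. IRF7, which amplifies interferon transcription, had 477 and 386 normalized counts in PANC-1 and 344 and 328 in PZT-2, again without overlap and without passing (log2 fold change -0.35, standard error 0.122, adjusted p = 0.0739). IRF1, which also answers interferon gamma, overlapped between the lines (log2 fold change -0.13, standard error 0.102, adjusted p = 0.393). IRF7 and IRF1 passed only without PANC-1 replicate 2, with adjusted p of 0.0053 and 0.022. PARP9 and DTX3L, partners in a complex that marks histones and promotes interferon signalling, share a start region on chromosome 3 and overlapped between the lines, at log2 fold changes of 0.14 (standard error 0.111) and -0.10 (standard error 0.0866). Neither passed (adjusted p = 0.409 and 0.461), while the genes around them had a median of 0.53 and chromosome 3 a median of 0.43.

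**Figure D2:**
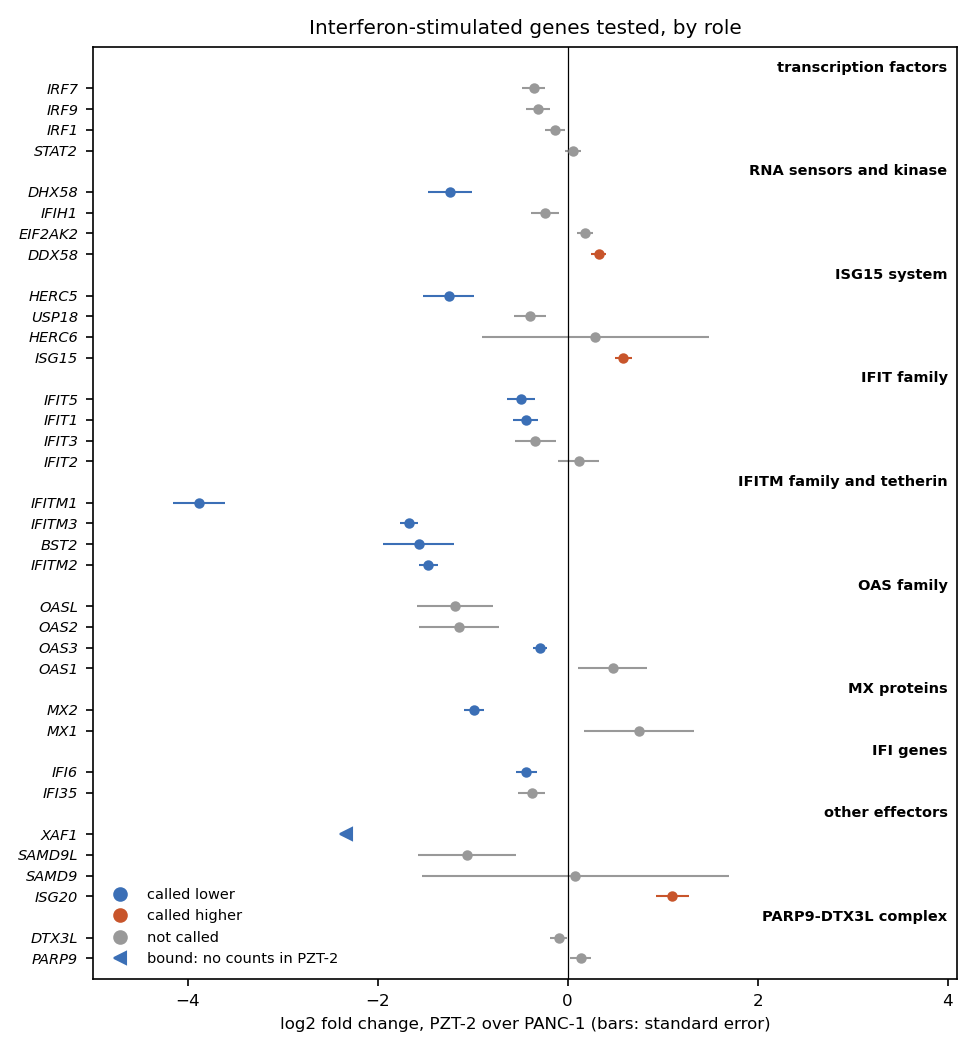
Log2 fold changes (PZT-2 over PANC-1, bars for the standard error) of the 34 interferon-stimulated genes tested, grouped by role and coloured by call, with XAF1 drawn at its bound. All genes of the IFITM and tetherin role lie at -1.47 or lower, the transcription factors lie between -0.35 and 0.06, and ISG15, DDX58 and ISG20 are the called genes to the right of 0.

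Set beside each other per length, the levels changed order. In TPM as deposited, a transcript abundance scaled for length and depth, IFITM3 was the highest of the 34 genes in both lines, with means and SD over 2 libraries of 1455 ± 171 for PANC-1 and 456 ± 20.7 for PZT-2. It held 65.8% of the summed TPM of the 34 genes in PANC-1 and 43.5% in PZT-2. ISG15 went from 131 ± 6.29 to 196 ± 15.2 TPM (SD, n = 2) and from rank 3 to rank 2, with 5.91% and 18.7% of the sum. IFITM2 went from 178 ± 15.6 to 64.0 ± 1.82 TPM (SD, n = 2), from rank 2 to rank 3. IFITM1 went from 65.0 ± 15.3 to 4.30 ± 1.25 TPM (SD, n = 2), from rank 4 to rank 21, and ISG20 from rank 16 to rank 7. IFI35 and IFI6, next below IFITM1 in PANC-1 at 52.6 ± 10.2 and 49.5 ± 3.7 TPM (SD, n = 2), did not differ from it or from each other beyond their spread. HERC5, at 2.05 ± 0.0535 TPM in PANC-1 and 0.85 ± 0.167 TPM in PZT-2 (SD, n = 2), was far below ISG15 in both lines.

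**Figure D3:**
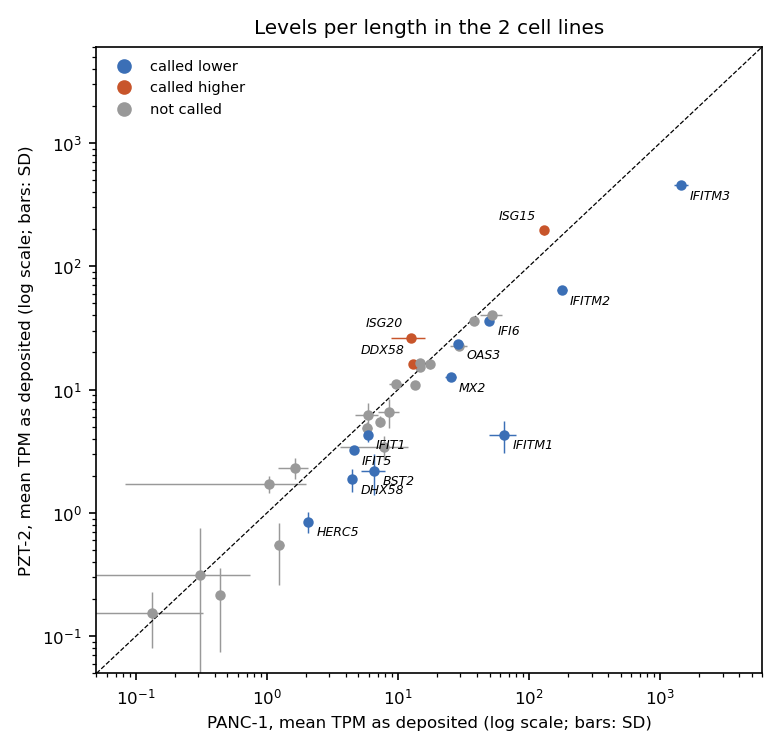
Mean TPM as deposited in PANC-1 (horizontal) and PZT-2 (vertical), both on log scales with bars for the SD of 2 libraries, for the 33 interferon-stimulated genes tested that have counts in both lines, with the line of equality dashed. IFITM3 is the highest in both lines, IFITM1 lies furthest below the line, and ISG15, ISG20 and DDX58 are the called genes above it.

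The same test was also run on separate transcripts, with its own fit and adjustment over all of them. IFITM1 has 1 transcript, so its counts were the same in both. Its unadjusted p in edgeR was 4.05e-06 as a gene and 0.000666 as a transcript. The 34 genes had 58 transcripts in the table, 57 of them tested, and 20 genes had a single transcript. No member transcript passed in edgeR (lowest adjusted p = 0.0604, for IFITM2 and IFITM3), and 13 had an unadjusted p under 0.05. Over all 30403 transcripts tested, 45 passed, which is 0.148%, and 5614 had an unadjusted p under 0.05. NM_021034 held 98.3% of the IFITM3 counts in PANC-1 and 96.9% in PZT-2, with a log2 fold change of -1.70. NM_002201 held 79.3% and 84.7% of those of ISG20, with a log2 fold change of 1.18. In OASL, NM_003733 had 151, 62.6, 20.1 and 44.3 normalized counts over the 2 PANC-1 and 2 PZT-2 libraries, and the shorter NM_198213 had 15.7, 12.7, 23.1 and 16.8. The first was lower in both PZT-2 libraries and the second higher, at log2 fold changes of -1.72 and 0.48, neither of which passed (adjusted p = 0.344 and 0.808).

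Upstream of these genes, receptor chains and kinases gave calls in the higher direction that depended on the fit. Among 21 interferon genes only IFNL1 had a row, with 1.12, 2.71, 4.02 and 11.9 normalized counts over the 2 PANC-1 and 2 PZT-2 libraries, too few to be tested. Of 9 receptor and kinase genes tested, 5 were called higher in edgeR (55.6%, beside 14.7% of all genes) and 4 in DESeq2. None was called lower by either tool or had an unadjusted p under 0.05 in that direction, beside 13.7% of all genes called lower. IFNGR1, the ligand-binding chain of the interferon gamma receptor, showed 247 and 213 normalized counts in PANC-1 and 335 and 349.9 in PZT-2, which gives 0.58 on the log2 scale (adjusted p = 0.0112). IFNAR2, a chain of the type I receptor, had 316 and 292 in PANC-1 and 429.6 and 411 in PZT-2, which gives 0.47 on the log2 scale (adjusted p = 0.012). In both genes the lines did not overlap, and the medians of their neighbours were 0.32 for IFNGR1 and 0.07 for IFNAR2. IFNGR2, IL10RB and JAK1 were called higher at log2 fold changes of 0.40, 0.30 and 0.23 (adjusted p = 0.00513, 0.0292 and 0.0252). IFNAR1 at 0.02 (adjusted p = 0.866) and TYK2 at -0.06 (adjusted p = 0.487) did not pass, nor did JAK2 and IFNLR1, which reached at most 32.5 and 18.1 normalized counts. With either PZT-2 library left out, most or all of the higher calls in the pathway lists were lost in edgeR. Fewer of all genes were called higher in those fits too. JAK2 and IFNLR1, both at 0 in PZT-2 replicate 1, were called lower without PZT-2 replicate 2.

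Calls in the remaining pathway lists were few. Of 7 genes tested for STATs and negative feedback, 1 was called higher and 1 lower. Each is 14.3%, beside 14.7% higher and 13.7% lower of all genes. STAT3, which answers cytokines of the interleukin 6 family, fell from 7066 and 6675 to 4808 and 4580.4 normalized counts (log2 fold change -0.55, standard error 0.0559, adjusted p = 0.00122). SOCS1, a brake induced by the pathway, had a log2 fold change of -0.45 and did not pass (adjusted p = 0.17). Of 16 sensing and signalling genes tested, none was called higher by edgeR or DESeq2, with 1 at an unadjusted p under 0.05 in edgeR, and 2 were called lower by edgeR (12.5%, beside 13.7% of all genes) and 1 by DESeq2. The edgeR calls were IRF2BP1, a corepressor, at -0.54 (adjusted p = 0.00666) and TMEM173, which encodes the adaptor STING, at -0.51 (adjusted p = 0.039). The TMEM173 call was lost in 5 of 15 alternatives, namely DESeq2, the most abundant transcript and the fits without PANC-1 replicate 1 or either PZT-2 library (highest adjusted p = 0.21). The adaptor MAVS, the kinase TBK1 and the factor IRF3, which carry the signal from the RNA sensors, were at -0.15, -0.15 and 0.04, and none of them passed (adjusted p = 0.176, 0.43 and 0.75).

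A wider list of 65 other interferon-stimulated genes gave shares of calls near those of all genes. Of these 53 were tested, 7 were called higher (13.2%, beside 14.7% of all genes) and 9 lower (17.0%, beside 13.7%), and the median log2 fold change was -0.06. The difference between this list and the group was not tested. Among the lower genes were LGALS3BP, a secreted glycoprotein, at -0.76 (adjusted p = 0.00108), LY6E, a membrane-anchored surface protein, at -0.67 (adjusted p = 0.00145), and PARP10, a mono-ADP-ribosyltransferase, at -0.66 (adjusted p = 0.00266). NMI, the partner of IFI35, was called lower at -0.59 (adjusted p = 0.0168). Among the higher genes were PML, the organizer of nuclear bodies, at 0.57 (adjusted p = 0.00193), SP110, a nuclear body protein, at 0.55 (adjusted p = 0.0222), PNPT1 at 0.46 (adjusted p = 0.0252) and ZNFX1, a sensor of double-stranded RNA, at 0.44 (adjusted p = 0.00347). The calls of NMI, SP110 and PNPT1 were lost without either PZT-2 library and for the most abundant transcript, that of SP110 also with DESeq2 and without PANC-1 replicate 2, and that of PNPT1 on log2(TPM), with adjusted p up to 0.10, 0.15 and 0.13. LAMP3, a lysosomal membrane protein, stood apart with 75.4 and 19.9 normalized counts in PANC-1 and 357 and 349.9 in PZT-2. It was higher in both PZT-2 libraries by 2.96 on the log2 scale (standard error 0.414, adjusted p = 0.00362), and the 2 PANC-1 libraries differed from each other. The medians of the neighbours were 0.45 for LAMP3, 0.34 for SP110, 0.24 for PML, 0.16 for PNPT1 and 0.07 for ZNFX1. Their part in these calls was not tested. CXCL9, CXCL10, CXCL11 and RSAD2, genes that interferon induces strongly, had no row.

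**Figure D4:**
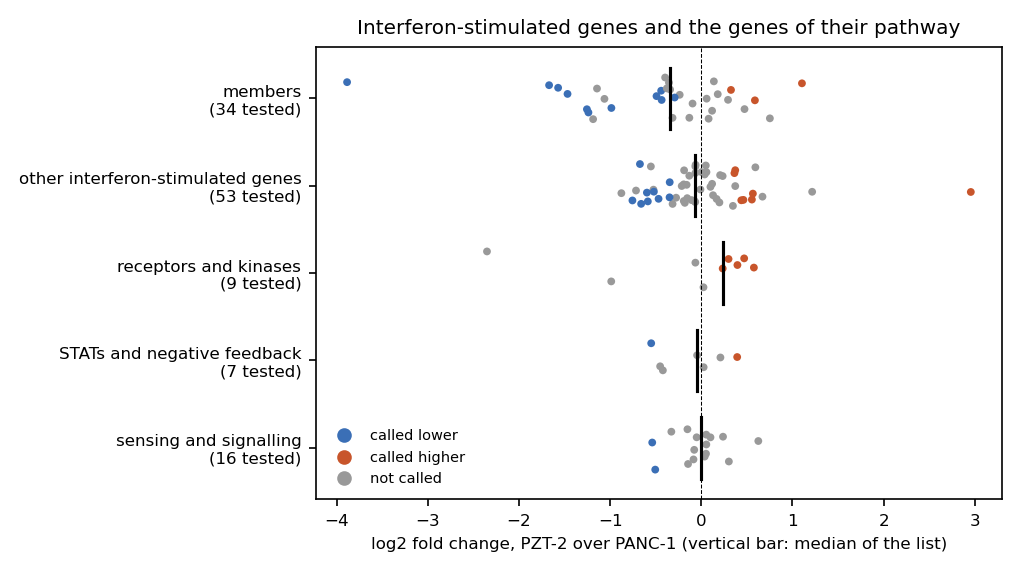
Log2 fold changes (PZT-2 over PANC-1) of the interferon-stimulated genes, a wider list of them and 3 lists of pathway genes, one point per gene coloured by call, with a vertical bar at each median and XAF1 left out. The medians are -0.35 for the interferon-stimulated genes, -0.06 for the wider list and 0.23 for the receptors and kinases, and points of both directions occur in the first 2 lists.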

How the data were processed

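RNA from 2 PANC-1 and 2 PZT-2 samples was sequenced as stranded mRNA libraries in paired reads of 76 bases on a NextSeq 500. Per the paper's methods and the submitters' processing notes, the authors trimmed reads with Trim Galore 0.4.1 and made the deposited estimated counts and TPM with kallisto 0.43.0 on RefSeq transcripts, exported by sleuth 0.29.0. The notes name hg19, and the RefSeq release is not given in the sources used here. The deposited TPM column is treated as a score, because sleuth rescaled it by 1 factor per library (library sums 940619 to 1000097). The authors' columns of p, q, effects and variances per transcript hold their own comparison and were not used. Libraries of PSCR cells were not analysed here, and results for some genes are not reported here.

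The deposited estimated counts also carry 1 factor per library (1.16 and 0.935 for PANC-1 and 1.03 and 1.01 for PZT-2 replicates 1 and 2), which was undone before rounding. After that, 41.1% to 42.3% of values between 0.5 and 30 were whole to within 0.01, against 0.915% to 2.39% as deposited. Transcripts were summed per gene by the symbol of the deposited table, or by RefSeq accession where it gave none (5 transcripts of IFIT3 and IRF1). The 103 transcripts that stayed unnamed held 0.0466% of the counts. Genes reaching 5 counts or more in 2 or more libraries were tested with edgeR 4.0.16 (TMM, quasi-likelihood test, no covariate) in R 4.3.3, tested on simulated data first. Standard errors are the log2 fold change divided by the root of its F statistic. Chromosomes, neighbours (the 10 genes tested on each side) and promoters come from RefSeq tables of GRCh38.p14, and shared 31-base words from GENCODE 29 transcripts, either strand.

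The members and all lists were chosen with earlier results of these data known. Named are all 39 genes, H2AFZ and H2AFV, genes of the pathway lists, and of the wider list the 5 called genes with the highest and the 5 with the lowest change at a mean of at least 20 normalized counts. The neighbours of the IFITM genes, CD14, and the wider-list genes without a row were picked with their values in view. The alternatives tried were RLE size factors, DESeq2 1.42.0, no filter, at least 10 counts in all 4 libraries, limma 3.58.1 on log2(TPM + 1) and log2(TPM + 0.1), a replicate block, each library left out, counts as deposited, the most abundant transcript alone, the version 4 dispersion estimate of edgeR, a further 2-fold minimum and, added after seeing the data, transcripts with a symbol alone.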

Additional observations from a re-analysis of the deposited data

How the results depend on the processing

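The numbers of calls depended on the fit more than the direction did. The members called lower were 12, and 7 with DESeq2, 6 for the most abundant transcript alone, 7 with a further 2-fold minimum, and from 6 to 13 with each library left out, while the members called higher were 3, and 1 with the 2-fold minimum. Over all genes, 2223 were higher and 2069 lower, 1124 and 1008 for the most abundant transcript, 442 and 395 with the 2-fold minimum, and 1023 to 2481 higher and 856 to 2250 lower with libraries left out. With DESeq2, 1666 of all genes were higher and 1554 lower. Of the wider list, 7 were higher and 9 lower. DESeq2 called 4 of them higher, the most abundant transcript 3, and the 2-fold minimum 1 higher and 0 lower, with 3 to 10 higher and 5 to 10 lower with libraries left out. Of the pathway genes, 6 were higher and 3 lower, 3 and 5 for the most abundant transcript, 0 and 0 with the 2-fold minimum, and 0 to 8 higher and 2 to 4 lower with libraries left out. A library left alone in its line was assumed to vary like the other pair. The causes were not tested. By construction some of these fits use fewer samples or, for genes with more than 1 transcript, a smaller share of the counts.

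Of 499 pairs of a member and an alternative, 441 kept direction and side of the threshold, 42 lost a call, 7 gained one and 9 changed sign, none of them a gene that had been called. Over the fits that leave out a library, the log2 fold changes that crossed 0 ran from -0.20 to 0.0014 for DTX3L, -0.80 to 0.70 for HERC6, -0.17 to 0.35 for IFIT2, -0.28 to 0.013 for IRF1, -0.99 to 1.09 for SAMD9, -0.017 to 0.12 for STAT2, -0.026 to 0.067 for IFNAR1 and -0.028 to 0.089 for IRF3. For the most abundant transcript alone, SAMD9L was at 0.14, STAT2 at -0.073 and MAVS at 0.076, each with the opposite sign to the gene. The median of the members stayed within 1 SD of the spread between replicates in all 15 alternatives.

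Nothing in the labels ties the replicate numbers across the lines, and deviations of the libraries with number 1 correlated at -0.0206, so they share only a number. With the replicate block, 10 members were called lower and 3 higher, beside 1738 and 1955 of all genes. IFIT1 and IFIT5 lost their calls in that fit. Depth limits the genes below about 50 normalized counts, such as BST2, XAF1, SAMD9, SAMD9L, HERC6, OAS1 and OAS2, where counting error alone is large.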
